A study of Sus scrofa and Bos taurus with 31 samples.

Results

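Chromatin accessibility was described in the pig at 9 genes known for their use in cerebellar granule cells or Purkinje cells: CBLN1, CBLN3, PCP2, CALB1, ATOH1, EN2, PAX6, BARHL1 and NEUROD1. The genes were listed by name for their known use in these cells, with earlier results of these data known, and they are 9 of the 20394 protein-coding genes on sequences that hold peaks. Each gene was given a window of the gene body and 10 kb on either side in the RefSeq annotation of the Sscrofa11.1 build. In each library, 3 measures were taken: the peaks in the window, the bases of the window in peaks per Mb of all peak bases of that library, and a peak within 2 kb of a transcription start site (TSS) of the gene.

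The data were peak lists of the assay for transposase-accessible chromatin with sequencing (ATAC-seq), where an enzyme inserts adapters into DNA that is not packed away. Nuclei came from fresh tissue and were cryopreserved before the assay. The donors were 2 castrated male Yorkshire littermate pigs of 6 months, P348 and P350, and each gave cerebellum, cerebral cortex, hypothalamus, adipose, liver, lung, skeletal muscle and spleen, so 16 libraries in 8 tissues with n = 2 per tissue. No animal was treated or genetically modified, and every value therefore describes 2 brothers of 1 litter.

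Granule cells are the small excitatory neurons that fill the inner cortex of the cerebellum, and they arise from rhombic lip precursors that depend on ATOH1. Their axons, the parallel fibres, contact the dendrites of Purkinje cells, large inhibitory neurons that carry the only output of the cerebellar cortex. Accessible chromatin marks promoters and enhancers that can be bound by transcription factors, and an open promoter alone does not tell whether the gene is transcribed.

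The cerebellum lists were the longest of the 16. They held 207917 to 217308 peaks over 147.8 to 155.6 Mb, while the other 14 libraries held 99960 to 193317 peaks over 64.14 to 145.0 Mb. The median of all 19638 genes tested was 0.82 lower in cerebellum than in the mean of the 7 other tissues on the scale log2(peak bases per Mb + 5), and 0.65 lower with lists of equal length (log2 differences of -0.82 and -0.65). The cause of this shift was not tested. Differences from the 7 other tissues are given on that scale and also relative to the median gene. In bulk tissue, fewer cells of a type and less accessibility per cell cannot be told apart.

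Sequences of 2 regions are shown first because they were the only ones overlapping the CBLN1 and CALB1 windows that had a peak in both cerebellum libraries and in no other tissue's pair. The CALB1 stretch itself lies just outside the window, which only the peak of P350 reaches. Each is the plus strand of Sscrofa11.1 over the stretch that the peaks of both pigs share. Capitals mark matches on either strand to CAGATG or CAGCTG, which are E-boxes of the kind bound by basic helix-loop-helix factors, to TAATTA, a homeodomain core, or to TATAAA.

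CBLN1 region, chr6:35521922-35522164: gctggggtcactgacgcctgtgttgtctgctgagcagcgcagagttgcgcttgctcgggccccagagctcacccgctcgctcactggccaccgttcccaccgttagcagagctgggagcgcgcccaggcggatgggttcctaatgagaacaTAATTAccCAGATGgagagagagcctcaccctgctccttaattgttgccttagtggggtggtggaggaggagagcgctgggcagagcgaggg

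CALB1 region, chr4:46690887-46691102: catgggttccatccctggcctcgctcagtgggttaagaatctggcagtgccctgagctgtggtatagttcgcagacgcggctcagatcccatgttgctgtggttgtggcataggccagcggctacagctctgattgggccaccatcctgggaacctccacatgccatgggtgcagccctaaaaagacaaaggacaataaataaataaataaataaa

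The CBLN1 stretch of 243 bases is intergenic and holds 1 TAATTA and 1 CAGATG. In windows of that length centred on the 131394 stretches shared by both cerebellum lists, 3.75% held TAATTA and 22.1% held CAGATG. The CALB1 stretch of 216 bases is intergenic, held none of the motifs and was masked as repeat over its whole length in the assembly, as were 3.11% of windows of 216 bases.

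Promoters of 2 further members are shown. NEUROD1 had more peak bases per Mb within 2 kb of its TSS in both cerebellum libraries than in any other library. BARHL1 had its strongest TSS peaks outside the brain. Each holds the 250 bases before the first TSS, in the direction of the gene.

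NEUROD1 promoter, chr15:87179954-87180203, minus strand: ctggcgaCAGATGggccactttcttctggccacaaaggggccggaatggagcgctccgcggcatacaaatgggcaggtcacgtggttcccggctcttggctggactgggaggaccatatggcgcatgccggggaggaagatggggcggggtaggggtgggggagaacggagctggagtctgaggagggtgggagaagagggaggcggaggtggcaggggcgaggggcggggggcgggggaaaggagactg

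BARHL1 promoter, chr1:272372875-272373124, plus strand: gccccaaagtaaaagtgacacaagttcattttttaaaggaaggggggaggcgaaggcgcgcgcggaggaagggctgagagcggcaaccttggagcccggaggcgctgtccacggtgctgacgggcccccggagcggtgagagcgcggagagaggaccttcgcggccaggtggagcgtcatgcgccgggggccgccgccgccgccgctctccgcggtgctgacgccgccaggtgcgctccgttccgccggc

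The NEUROD1 promoter held 1 CAGATG, as did 12.6% of 20388 promoters of coding genes at least once, and the BARHL1 promoter held none of the motifs. CAGCTG was found in 13.5%, TAATTA in 3.96% and TATAAA in 10.2% of these promoters.

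NEUROD1, a basic helix-loop-helix factor needed for granule cells to differentiate and survive, lay in a 4325 bp gene on chromosome 15, with no other coding TSS in its window. Both cerebellum libraries carried 1 long peak that ran from upstream of the TSS into the gene. In P348 it reached from position -307 to 2581 bp relative to the first TSS, a width of 2889 bp. In P350 it reached from position -289 to 2703 bp, a width of 2993 bp. The widest peak of the window measured 0 to 1601 bp in the 14 other libraries, with a median of 759 bp. In 13 of them a peak of 277 to 883 bp lay past the TSS in the middle of the gene, and only in the cortex of P348 was the TSS base itself in a peak. Fold enrichment was not higher in cerebellum: the long peaks had folds of 3.15 and 3.13, and the peaks of that region reached 7.56 in the liver of P348. The widest peak was longer in both cerebellum libraries than in all 14 others for NEUROD1 and CBLN1, 2 of the 9 members, against 5.4% of 19638 genes. This measure was chosen after the peaks of the members were seen.

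Within 2 kb of its TSS, NEUROD1 had 14.8 peak bases per Mb in the cerebellum of P348 and 15.5 in that of P350. Cortex had 7.22 in P348 and 0 in P350, hypothalamus 0 and 2.38. Spleen had 0 and 5.67, adipose 0.616 and 1.89, lung 0 and 1.08, and liver and skeletal muscle were at 0 in both pigs. The 2 kb limit left out peaks that began just past it. They began at 2388 and 2359 bp in liver (folds of 7.56 and 4.69) and at 2355 and 2378 bp in hypothalamus. In the skeletal muscle of P348 the peak began at 2369 bp, and that of P350 had none in the window. The long cerebellum peaks ran across the limit, so this measure depends on where it was set. Both cerebellum values lay above all 14 others. The share of all genes above all 14 is given for the whole windows only, where it was 4.99%. On this narrower window the log2 difference was 1.74 against the 7 other tissues (limma, adjusted p = 0.00247), 1.37 against cortex (limma, adjusted p = 0.042) and 1.73 against hypothalamus (limma, adjusted p = 0.0236). NEUROD1 was the only member called higher there, and the background of genes called higher was 2.93%, 1.82% and 1.73% of 18218 genes. Lower calls on that window were CBLN3 and PCP2 against the 7 other tissues, beside 56.8% of genes, and ATOH1 against hypothalamus, beside 28.8%. Against cortex 0 were lower, with 17.5% of genes. Against the 5 non-brain tissues NEUROD1 was again higher, at 1.81 (limma, adjusted p = 0.00199) beside 3.3% of genes, and CBLN3 and PCP2 were lower beside 58.2%.

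Over the whole window, NEUROD1 had 23.9 and 28.4 peak bases per Mb in the cerebella of P348 and P350. Cortex had 27.6 and 8.47, hypothalamus 16.5 and 7.88. The 10 non-brain libraries ranged from 0 to 35.4, with a median of 11.8, and the highest was the spleen of P350. The groups overlapped. The log2 difference against the 7 other tissues was 0.95 with an SE of 0.48 (limma, adjusted p = 0.0897), and relative to the median gene it was 1.77, higher than for 92% of genes. NEUROD1 was called higher over the whole window when peaks were limited to q under 0.01, at 1.78 (limma, adjusted p = 0.00112), and at equal list length, at 1.76 (limma, adjusted p = 0.00643).

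**Figure D1:**
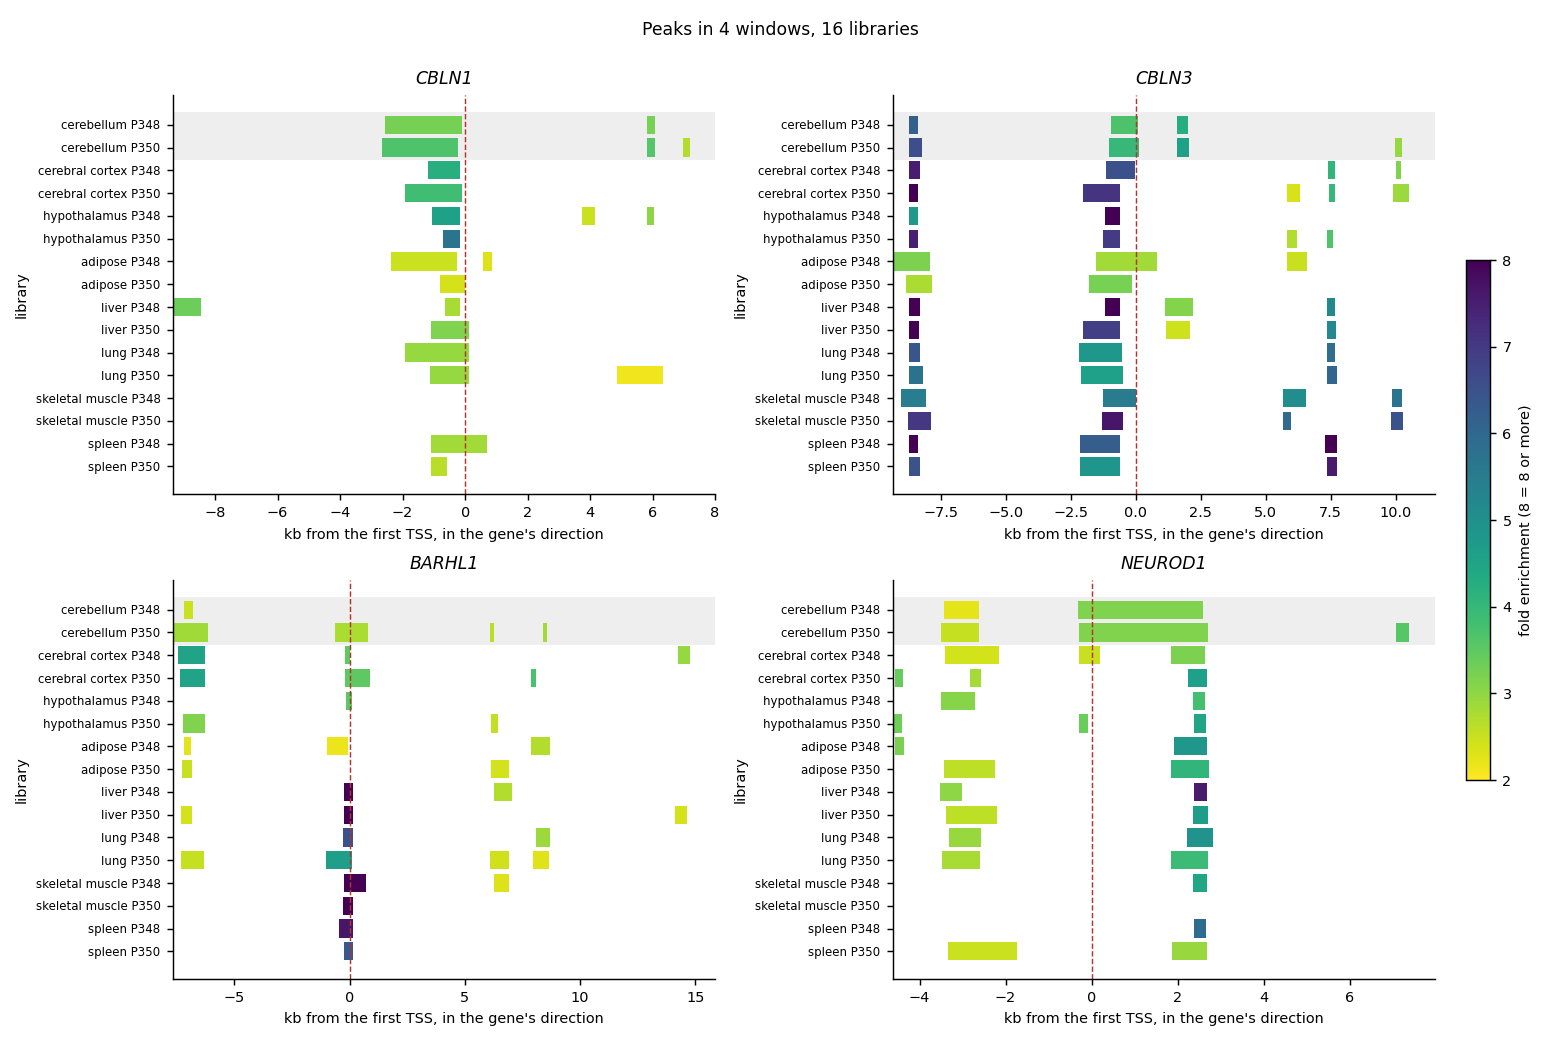
Peaks in the windows of CBLN1, CBLN3, BARHL1 and NEUROD1 in the 16 libraries, as bars placed by distance from the first TSS in kb (x axis) with 1 row per library (y axis) and colour for fold enrichment. The grey band marks cerebellum. The NEUROD1 panel shows the long cerebellum peaks of 2889 and 2993 bp, and the CBLN3 panel the region at 1682 bp that only cerebellum and liver share.

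CBLN1 encodes a secreted protein of granule cells that bridges parallel fibres to the delta glutamate receptor of Purkinje cells. Its 1984 bp gene on chromosome 6 had no other coding TSS in its window. Peak bases per Mb were 17.4 in the cerebellum of P348 and 19.6 in that of P350. Cortex had 11.13 and 17.7, and hypothalamus had 23.6 and 5.79. The non-brain libraries ran from 0 in both skeletal muscle libraries to 27.0 in the spleen of P348, with a median of 15.7. Cerebellum had the highest tissue mean, 18.5 ± 1.60 (SD, n = 2), but lung at 18.1 ± 0.918 (SD, n = 2) did not differ from it beyond that spread. The share of the window in peaks was 12.3% and 13.2% in cerebellum.

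A peak within 2 kb of the CBLN1 TSS was present in 14 libraries and missing from both skeletal muscle libraries. Its highest fold enrichment, the pileup over the local background as the peak caller gave it, was 3.26 and 3.69 in cerebellum and reached 5.71 in the hypothalamus of P350. The TSS base was in no cerebellum peak and in a peak of 4 of the other 14 libraries, and the cerebellum peak of P348 ended at position -91 bp relative to it. The upstream peak was 2461 and 2428 bp wide in cerebellum, against at most 2115 bp for any peak elsewhere. The cerebellum-only region had folds of 3.23 and 3.60, and single peaks touched it in the hypothalamus of P348 and the lung of P350. The log2 difference against the 7 other tissues was 0.51 with an SE of 0.37 (limma, adjusted p = 0.226), and relative to the median gene it was 1.34.

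CBLN3 encodes a cerebellin that pairs with CBLN1 in granule cells. Its 2513 bp gene on chromosome 7 begins 742 bp from a TSS of KHNYN, and 37.0% of its window lies within 2 kb of KHNYN start sites. Cerebellum had 11.9 and 16.2 peak bases per Mb, cortex 22.4 and 30.5, and hypothalamus 14.3 and 18.2. The non-brain libraries had 17.4 to 36.8, with a median of 34.8. Cerebellum was lowest by tissue mean, 14.1 ± 3.05 (SD, n = 2), and hypothalamus, at 16.2 ± 2.80 (SD, n = 2), was within that spread. The exact two-sided permutation test of cerebellum against the 14 other libraries gave p = 0.0167, where 120 choices allow no less than 0.00833. The log2 difference against the 7 other tissues was -0.79 with an SE of 0.20 (limma, adjusted p = 0.00359), and relative to the median gene it was 0.04.

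The peaks at CBLN3 differed in place. The promoter peak covered the TSS base of CBLN3 in both cerebellum libraries and in 2 of the 14 others, and in no cortex or hypothalamus library. A second region, with its middle 1682 bp past the TSS, had folds of 4.29 in P348 and 4.59 in P350 in cerebellum. Liver had 3.12 and 2.46 there, and the remaining 12 libraries had no peak. The region nearest the KHNYN and CBLN3 start sites was open in all 8 tissues, with folds of 3.71 and 3.98 in cerebellum and up to 8.19 in hypothalamus.

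PCP2, also called L7, is a Purkinje cell protein that acts on G protein signalling. The RefSeq model on chromosome 2 is 48324 bp long with 4 start sites, and its window also holds start sites of MCEMP1, PET100, RETN, STXBP2, TRAPPC5 and XAB2. It had 10.6 and 19.6 peak bases per Mb in cerebellum, 31.6 and 28.4 in cortex, and 27.8 and 27.5 in hypothalamus. The non-brain libraries had 25.5 to 77.9, with a median of 60.4. Both cerebellum libraries were below all 14 others, which held for 1 of the 9 members and for 33.8% of all genes tested. The log2 difference against the 7 other tissues was -1.32 with an SE of 0.22 (limma, adjusted p = 0.000328), and it was -0.50 relative to the median gene. The exact two-sided permutation test gave p = 0.025.

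Several open regions in the PCP2 window lay within 2 kb of start sites of other genes, namely TRAPPC5, RETN, STXBP2, PET100 and XAB2. Of 8 regions open in a tissue, 2 were open in cerebellum, 1 at the first PCP2 and TRAPPC5 start sites and 1 at those of PET100 and XAB2, and both were open in all 8 tissues. Their folds in cerebellum were 2.95 and 2.48 at the first and 4.43 and 5.73 at the second. A region at an internal start site of PCP2 was open in cortex, lung and spleen and had no peak in cerebellum. With bases within 2 kb of other coding start sites left out, PCP2 fell to 1.29 and 6.48 per Mb in cerebellum against 0 to 20.3 elsewhere, and neither PCP2 nor CBLN3 was called.

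CALB1 encodes calbindin, a calcium buffer abundant in Purkinje cells and also found in neurons elsewhere. Its gene is 22273 bp long on chromosome 4. Cerebellum had 7.93 and 12.7 peak bases per Mb, cortex 11.9 and 10.95, and hypothalamus 4.02 and 3.72. The non-brain libraries had 0 to 16.1, with a median of 3.21, and the highest was the liver of P348. Cortex had the highest tissue mean, 11.4 ± 0.663 (SD, n = 2), and cerebellum, at 10.3 ± 3.39 (SD, n = 2), did not differ from it beyond its spread. The log2 difference was 0.58 with an SE of 0.39 against the 7 other tissues (limma, adjusted p = 0.198) and 1.40 relative to the median gene.

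The CALB1 promoter was open in all libraries but the spleen of P350. Its fold was 4.83 and 3.85 in cerebellum, below the 6.33 and 7.20 of cortex and the 7.03 and 7.94 of hypothalamus. The cerebellum-only region, centred at -10053 bp from the TSS, had folds of 4.62 and 3.24, and peaks touched it in the lung and the spleen of P350. The printed stretch is repeat and the reads were 40 bases long, and the part of read placement in these folds was not tested.

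PAX6, a paired box and homeobox factor of granule cell precursors, eye and pancreas, has 13 start sites over 29585 bp on chromosome 2. Its window held 12 peaks in each cerebellum library and 2 to 9 in the 14 others, counts not scaled to list length. The lists were also longest in cerebellum, with 207917 to 217308 peaks against 99960 to 193317. Per listed peak, some other libraries had more in this window than either cerebellum library and others fewer. The hypothalamus of P348 had 9 in a list of 105665, and the skeletal muscle of P350 had 2 in a list of 99960. With peak numbers scaled to list length, no member was called higher against the 7 other tissues (limma), beside 1824 of 19638 genes. The share of bases in peaks differed between the pigs. It was 36.9 per Mb in the cerebellum of P348 and 89.0 in that of P350, against 72.3 and 74.5 in cortex and 89.8 and 63.8 in hypothalamus. The non-brain libraries had 27.4 to 89.8, with a median of 58.0. The pigs differed by 1.16 in cerebellum on the log2 scale, while the median gene differed by 0.47. The log2 difference against the 7 other tissues was -0.08 with an SE of 0.29 (limma, adjusted p = 0.816), and 0.75 relative to the median gene.

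Without scaling to list length, 10 of the 11 PAX6 regions were open in cerebellum, 6 in cortex and 4 in hypothalamus. All 11 were open in some tissue. Of these, 3 were open in cerebellum only. One, chr2:28974542-28975270, was near a PAX6 start site, had folds of 2.09 and 2.28, and had no peak in another library. Another, chr2:28995850-28996203, overlapped PAX6 coding exons with folds of 2.91 and 2.79, and 3 non-brain libraries had a peak there.

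A region of the window was open in 7 tissues, centred 6658 bp past the first start site. Its fold was 5.65 in the cerebellum of P348 and 4.35 in that of P350. Skeletal muscle had 5.21 and 5.00 there, and liver 5.00 and 3.47.

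**Figure D2:**
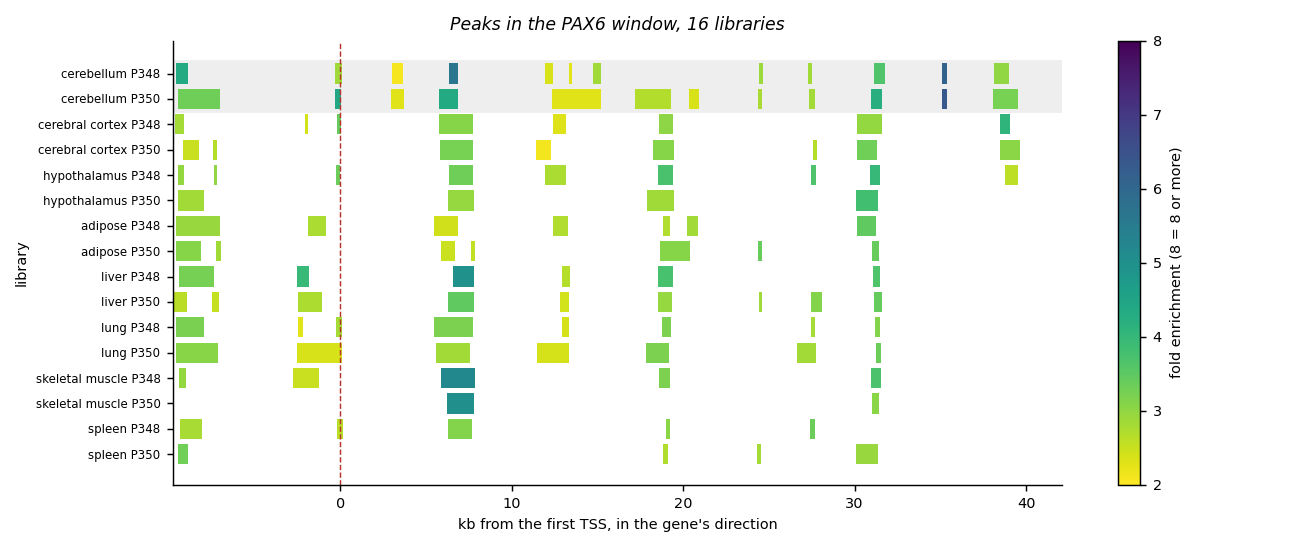
Peaks in the PAX6 window in the 16 libraries, as bars placed by distance from the first PAX6 start site in kb (x axis) with 1 row per library (y axis) and colour for fold enrichment. The grey band marks cerebellum, with 12 peaks in each library against 2 to 9 in the others, counts not scaled to list length. Per listed peak, some other libraries had more than either cerebellum library and others fewer.

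ATOH1, the basic helix-loop-helix factor of granule cell precursors, is a 2388 bp gene on chromosome 8. Cerebellum had 29.8 and 31.1 peak bases per Mb, cortex 32.4 and 29.5, and hypothalamus 62.2 and 47.2. The non-brain libraries had 19 to 65.6, with a median of 36.7. The pigs differed by 0.05 in cerebellum on the log2 scale. The log2 difference was -0.25 with an SE of 0.21 against the 7 other tissues (limma, adjusted p = 0.28) and 0.57 relative to the median gene.

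The ATOH1 promoter had a peak in all 16 libraries with folds of 2.74 to 4.36, and the 3.04 and 3.10 of cerebellum were inside that range. A region centred 6777 bp downstream of the TSS had folds of 12.2 and 12.9 in skeletal muscle, against 3.22 and 3.76 in cerebellum and at most 4.77 elsewhere. It is intergenic. No region of the ATOH1 window was open in cerebellum only.

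BARHL1, a homeobox factor of migrating granule cells, is a 7099 bp gene on chromosome 1. The pigs differed most here, with 2.58 peak bases per Mb in the cerebellum of P348 and 22.7 in that of P350. Cortex had 20.8 and 23.4, hypothalamus 3.93 and 13.7, and the non-brain libraries 5.80 to 25.0, with a median of 15.5. The cerebellum difference between the pigs was 1.87 on the log2 scale. Against the 7 other tissues the log2 difference was -0.31 with an SE of 0.43 (limma, adjusted p = 0.527), and 0.52 relative to the median gene.

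At the BARHL1 TSS, the cerebellum of P348 had no peak and that of P350 had a fold of 2.76. Skeletal muscle had 9.09 and 12.4, liver 11.7 and 10.3, spleen 7.65 and 6.34, and lung 6.51 and 4.66. Cortex had 3.47 and 3.48. The region was open in cortex, liver, lung, skeletal muscle and spleen, and not in cerebellum. The only BARHL1 region open in cerebellum, centred at -6896 bp from the TSS, had folds of 2.49 and 2.85 and was also open in cortex and adipose.

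EN2, a homeobox factor of the midbrain and hindbrain border, is a 6465 bp gene on chromosome 18. Its values were 14.6 and 35.5 peak bases per Mb in cerebellum, 18.4 and 0.916 in cortex and 51.0 and 6.22 in hypothalamus. The non-brain libraries had 12.3 to 45.0, with a median of 36.2. The SD of the pair was 14.8 in cerebellum, 12.4 in cortex and 31.6 in hypothalamus, and 0.601 in liver and 1.23 in lung. Its TSS peak was seen in 9 libraries, among them the cerebellum of P350 only. Folds in the EN2 window were low throughout, at most 3.52. The log2 difference was -0.05 with an SE of 0.52 against the 7 other tissues (limma, adjusted p = 0.937) and 0.78 relative to the median gene.

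**Figure D3:**
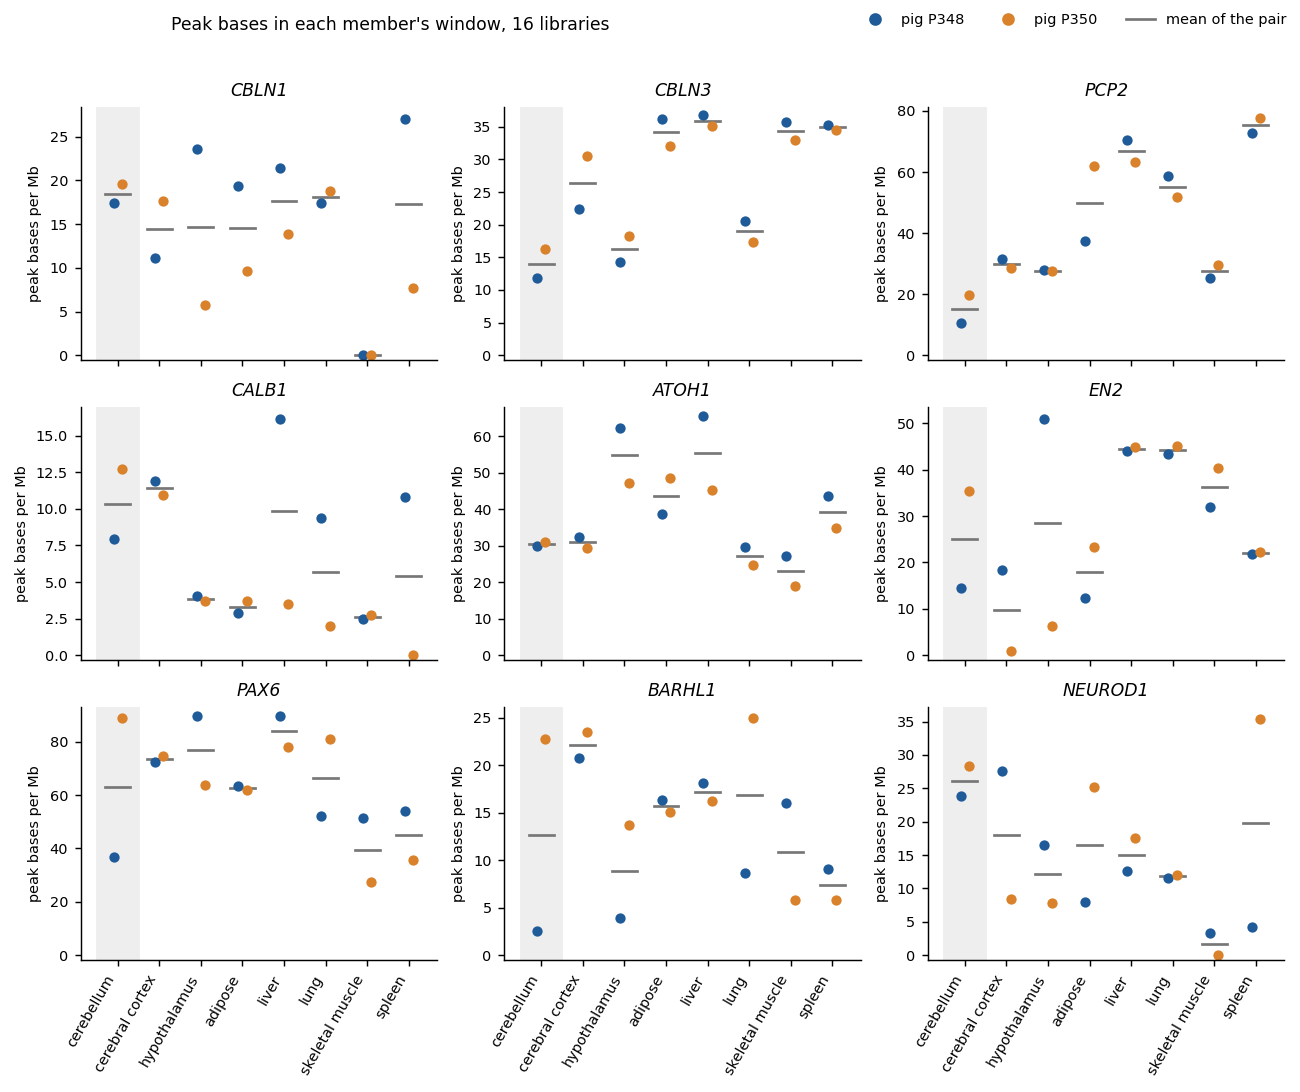
Peak bases per Mb of all peak bases (y axis) in each gene's window for the 8 tissues (x axis), with 1 point per library coloured by pig and a line at the mean of the pair. Cerebellum is shaded, its PCP2 values of 10.6 and 19.6 lie below all others, and 3 other libraries reach its lower NEUROD1 value of 23.9.

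Across the members, cerebellum was compared with the 7 other tissues, with cortex, with hypothalamus and with the 5 non-brain tissues in 1 limma fit over all 16 libraries. These comparisons share the cerebellum libraries. All 9 members passed the filter of a peak in 2 libraries, and 6 of them had a peak in all 16, against 76.3% of coding genes. Against the 7 other tissues, no member was called higher and 2, CBLN3 and PCP2, were called lower at an adjusted p under 0.05 (limma). The background of these calls was 10.2% of genes higher and 60.2% lower. At an unadjusted p under 0.05 (limma) there were 2 members, beside 14401 of 19638 genes. The median member had a log2 difference of -0.08 beside -0.82 for all genes, and 8 members lay above the median gene.

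With each library centred on its median gene, 5 members were called higher and 1 lower, beside 0 and 2 on the per-Mb scale. The 5 were CBLN1 (1.35), CALB1 (1.42), ATOH1 (0.59), PAX6 (0.77) and NEUROD1 (1.79), and the 1 was PCP2 (-0.48), as log2 differences with adjusted p of 0.00987 to 0.0463 (limma). The background on that scale was 20.6% of genes higher and 11.6% lower. CBLN3, at 0.06, was not called (limma, adjusted p = 0.859), and neither were EN2 and BARHL1. Centring was chosen after the data were seen.

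Against cortex, CBLN3 at -0.72 (limma, adjusted p = 0.0379) and PCP2 at -0.83 (limma, adjusted p = 0.0315) were called lower, and the background was 6.9% higher and 38% lower. Relative to the median gene, which was at -0.73, they were at 0.01 and -0.10. EN2 had the largest value, 1.26 with an SE of 0.69 (limma, adjusted p = 0.14). Centred, EN2 at 2.00 was the only call (limma, adjusted p = 0.0378), with backgrounds of 12.8% and 6.34%, and with the animal as a block ATOH1 was called as well. The cortex of P350 was at 0.916 per Mb. Per Mb and without P348 the EN2 difference was 2.78 and without P350 it was -0.26, with no test where 1 pig remains.

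Against hypothalamus no member was called on either scale (limma). The backgrounds of calls were 4.1% higher and 20.8% lower per Mb, and 7.07% and 2.1% centred. At an unadjusted p under 0.05 (limma) there were 2 members per Mb, beside 8556 of 19638 genes, and 3 when centred, beside 4899. NEUROD1 at 0.90 (limma, adjusted p = 0.274) and CALB1 at 0.77 (limma, adjusted p = 0.259) had the highest differences, and ATOH1 and PCP2 at -0.74 the lowest. Against the 5 non-brain tissues the calls were those of the 7-tissue comparison, CBLN3 at -0.93 and PCP2 at -1.54, with a background of 10.8% higher and 61.6% lower. Centred, 5 members were again higher and PCP2 lower, beside 22.1% and 13.1% of genes.

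**Figure D4:**
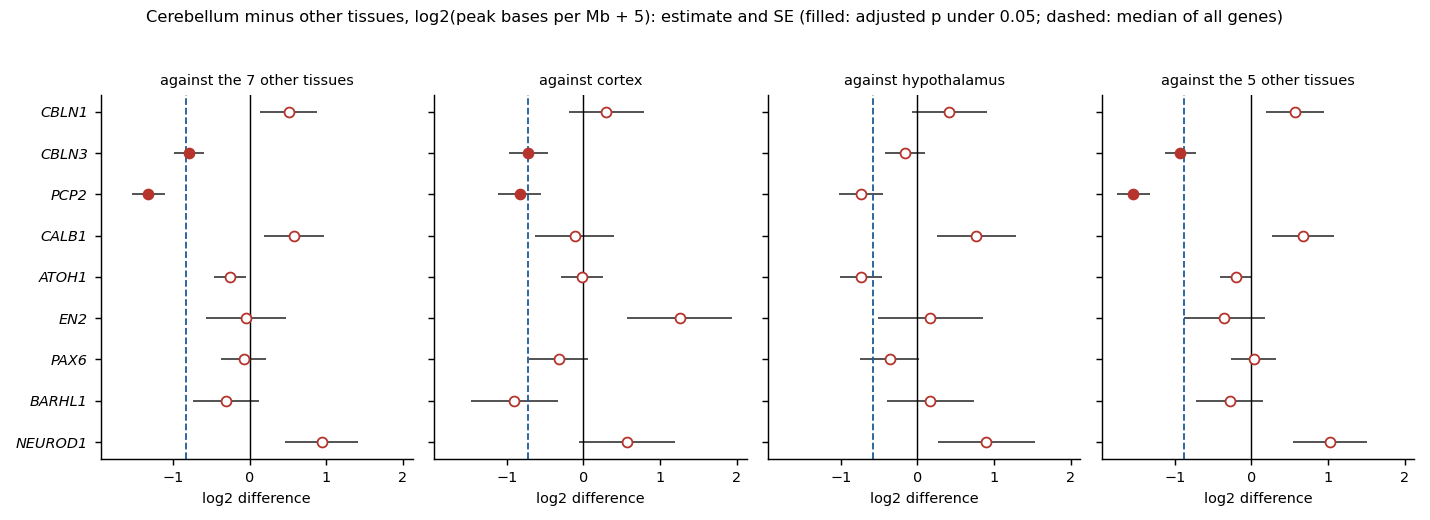
Log2 differences of cerebellum from each comparison group (x axis) for the 9 genes (y axis), with bars of 1 SE and filled points where the adjusted p was under 0.05. The dashed line is the median of all genes, from -0.88 to -0.58, and 7 or 8 of the 9 genes lie to its right while only PCP2 and CBLN3 are called against zero.

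The exact two-sided permutation tests gave p of 0.117 for NEUROD1, 0.242 for CALB1, 0.5 for CBLN1 and 0.458 to 0.942 for the other 4 besides CBLN3 and PCP2. These 9 values were not adjusted. No member had both cerebellum libraries above all 14 others on the per-Mb scale, beside 4.99% of genes.

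A TSS peak was present in both cerebellum libraries for 7 of the 9 members, beside 68.3% of coding genes. The exceptions were EN2 and BARHL1, each with a peak in P350 only. The count was 7 in cortex (74.6% of genes), in adipose (71.6%) and in skeletal muscle (71.2%). It was 8 in liver (74.5%) and lung (78.3%), 6 in hypothalamus (70.2%) and 5 in spleen (70.7%). The members with a TSS peak in every library were CBLN3, PCP2 and ATOH1, and 55.5% of genes had one. Another coding TSS lies 742 bp from that of CBLN3 and 1473 bp from one of PCP2, so peaks there cannot be assigned to 1 gene. The first TSS base was in a peak of 4 libraries at CBLN3, 2 at PCP2 and 14 at ATOH1. The first TSS base itself was in a peak of both cerebellum libraries for 5 members, CBLN3, CALB1, ATOH1, PAX6 and NEUROD1, beside 44.7% of genes. It was in a peak of all 16 libraries for 0 members, beside 36.3% of genes. This last measure too was chosen after the peaks were seen.

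**Figure D5:**
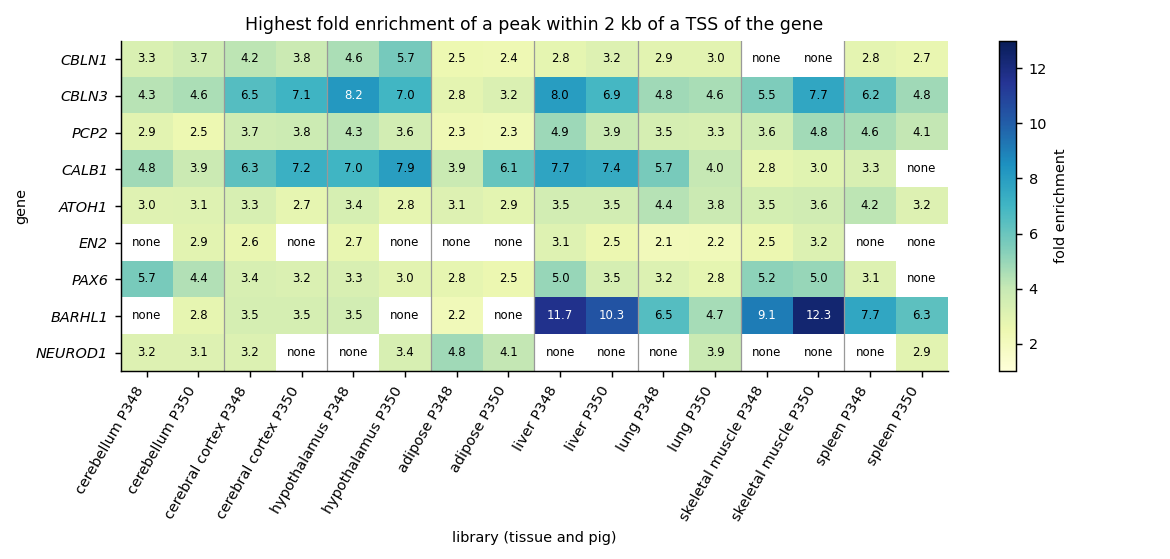
Highest fold enrichment of a peak within 2 kb of a start site (colour and number) for 9 genes (y axis) in 16 libraries (x axis), with "none" where no peak was listed. BARHL1 reaches 12.4 in skeletal muscle, and PAX6 has its highest value, 5.65, in the cerebellum of P348, with 4.43 in that of P350.

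Base composition around the first TSS differed among the members. Over 1000 bp, the ratio of observed to expected CpG was 1.08 at EN2, above 99.8% of genes, and 0.198 at CBLN3, above 11.6%. CALB1 had 0.51, the remaining members 0.678 to 0.877, and the median gene 0.644. EN2, with the highest ratio, had a peak within 2 kb of its TSS in 9 libraries, and CBLN3, with the lowest, had one in all 16. The first TSS base itself was in a peak of 6 libraries at EN2 and of 4 at CBLN3, where a KHNYN TSS lies 742 bp away.

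Overlapping the 9 windows, 67 regions had a peak in some library, and 40 were open in a tissue, meaning that both pigs had a peak there. Of these, 27 were open in cerebellum, 24 in cortex, 15 in hypothalamus and 6 in all 8 tissues. These counts were not scaled to list length, and their shares over all genes are not given here. Cerebellum-only regions numbered 5, or 12.5%, beside 9.68% of the 172750 regions in the windows of all coding genes, a share near the background. They were 3 at PAX6 and 1 each at CBLN1 and CALB1, the last with the peak of P348 outside the window.

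Related genes and the genes of the 2 cell types were counted in the same fits, where 10.2% of all genes were higher and 60.2% lower against the 7 other tissues with a median of -0.82, and 20.6% and 11.6% when centred. Of 17 paralogs of the members, 2 were higher and 4 lower against the 7 other tissues, with a median log2 difference of -0.36, and 6 were higher and 0 lower when centred. The paralog highest in cerebellum was PAX3 at 0.90 (limma, adjusted p = 0.0103), followed by CBLN2 at 0.84 (limma, adjusted p = 0.0209), and the lowest were ATOH8 at -1.28 and PAX7 at -1.27.

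Of 28 further granule cell genes, 3 were higher and 9 lower, with a median of -0.25, and centred 9 were higher and 1 lower. The shares of all genes were 10.2% and 60.2%, and centred 20.6% and 11.6%. DCC, a netrin receptor, had 859.5 peak bases per Mb in cerebellum against 156.7 elsewhere, a log2 difference of 3.07 (limma, adjusted p = 2.88e-05). GABRA6, a GABA receptor subunit of granule cells, had 24.1 against 5.64, a difference of 1.77 (limma, adjusted p = 0.00241). RBFOX3, the neuronal nuclear antigen NeuN, was lower at -1.70 (limma, adjusted p = 0.00235), and so was CCND2, a cyclin, at -1.66 (limma, adjusted p = 0.0001). RBFOX3 was not called when centred, at -0.86 (limma, adjusted p = 0.0838).

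Of 26 further Purkinje cell genes, 5 were higher and 10 lower, with a median of -0.36, and centred 7 were higher and 1 lower, beside the same shares of all genes as for the granule list. The highest were KITLG at 1.04 and FOXP2 at 0.98, and the lowest were RORA at -1.78 and LHX5 at -1.39. RORA, a nuclear receptor that Purkinje cells need, stayed lower when centred, at -0.94 (limma, adjusted p = 0.00111).

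Markers of the cell types a cerebellum sample could hold gave a mixed picture. Centred, where 20.6% of all genes were called higher, 1 of 4 granule markers (GABRA6) and 2 of 4 Purkinje markers (CA8 and SKOR2) were called higher in cerebellum, and so were 1 of 4 astrocyte markers (GJA1), 1 of 4 microglia markers (P2RY12) and 1 of 4 hypothalamic neuron markers (SIM1). None of 4 oligodendrocyte and 3 endothelial markers was. Called lower when centred were 1 oligodendrocyte, 1 microglia and 1 endothelial marker, beside 11.6% of all genes. Per Mb, 2, 3 and 2 of these were lower, as were 1 granule, 1 astrocyte and 1 hypothalamic marker, beside 60.2% of genes. Higher per Mb were 1 granule, 1 Purkinje and 1 hypothalamic marker, beside 10.2%. The summed level of the granule markers was 125.8 to 138.3 per Mb in cerebellum and 108.4 to 205.1 elsewhere, and that of the Purkinje markers was 335.0 to 395.5 and 242.5 to 514.2. Astrocyte markers had 89.9 to 101.2 in cerebellum and 82.4 to 171.7 elsewhere, and oligodendrocyte markers 39.5 to 101.7 and 87.1 to 222.3. Microglia markers had 75.4 to 86.2 and 100.7 to 331.3, endothelial markers 21.9 to 57.9 and 52.7 to 215.3. Hypothalamic neuron markers had 162.7 to 173.8 in cerebellum and 30.04 to 205.3 elsewhere. None of these markers was at 0 in both cerebellum libraries. The granule and Purkinje sums in cerebellum thus lay inside the range of the other libraries, while the microglia sums lay below it. Within the brain, the granule sums in cerebellum lay below the 163.4 to 199.0 of cortex and hypothalamus. The Purkinje sums there were 242.5 to 363.0, which overlapped those of cerebellum. These sums are per Mb, where 33.8% of all genes tested were lower in both cerebellum libraries than in all 14 others. The part of cell makeup in the members' values was not tested.

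The genes whose levels followed a member most closely over the 16 libraries were found by Pearson correlation on the log2 scale, as a description. CBLN1 was followed by SLC17A8 (0.94), CA8 (0.91) and SKOR2 (0.89), of which CA8 and SKOR2 are in the Purkinje list. NEUROD1 was followed by PDE6C (0.94), NPY2R (0.86) and ACTL9 (0.86). PAX6 was followed by STAB2 (0.87), ALK (0.86) and GRIK4 (0.86), and ATOH1 by SUSD4 (0.85), LOC110258060 (0.83) and ESRP1 (0.81). PCP2 was followed by METTL9 (0.96), CCZ1 (0.95) and TEX12 (0.94), and CBLN3 by STAT6 (0.93), NR1H3 (0.93) and KBTBD4 (0.92). EN2 was followed by HOXB8 (0.86), PARP9 (0.81) and WNT5A (0.79), and BARHL1 by LOC110259249 (0.85), SEZ6L (0.83) and HGD (0.81). CALB1 had the loosest matches, LOC100525476 (0.73), LOC100513751 (0.73) and LOC110257750 (0.70). The points share the length of each library's list.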

How the data were processed

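ATAC-seq peak lists of 16 pig libraries were used, and the cattle lists were not analysed here. The authors called broad peaks with MACS2 and deposited, for each peak, a fold enrichment over local background, a −log10 p-value and a −log10 q-value, and an integer score. The study's methods give a q limit of 0.05, whereas the deposited lists reach a −log10 q-value of 1.00. The submitters' processing notes name Trim Galore 0.4.5, BWA 0.7.17, SAMtools 1.10 and Picard 2.18.17, and whether ATAC reads were shifted is not given in the sources used here. Fragments of 150 to 250 bp were selected and read as 40 bp pairs. Peak lists hold no read counts, and read depth per library was not used here.

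Each library was a tissue of 1 animal as labelled. Windows came from RefSeq annotation release 106 of Sscrofa11.1. Bases in peaks were divided by the library's peak Mb, and log2(value + 5) was fitted with limma 3.58.1 in R 4.3.3, with 8 tissue means and Benjamini-Hochberg adjustment over the 19638 genes with a peak in 2 or more libraries. Limma p-values rest on the spread between these 2 littermates within tissues. Exact permutation tests took 120 choices of 2 of the 16 libraries. They treat all libraries as exchangeable, so their p also depends on differences among the tissues. With 1 library chosen from each pig (64 choices, smallest p 0.0156), the exact test gave 0.0156 for CBLN3, 0.0469 for PCP2 and at least 0.125 for the rest. The tissues of 1 animal share its number. Deviations of same-animal libraries had a mean correlation of -0.0041 over 28 tissue pairs, from -0.21 to 0.16.

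Members and lists (17 paralogs, 28 granule and 26 Purkinje cell genes, markers of 8 cell types) were chosen with earlier results of these data known. The result of 1 marker list and 1 region with its sequence are not reported here. All 9 members are named, with the 2 highest and 2 lowest genes of each list and the 3 genes closest to each member by correlation. Alternatives covered q limits, equal list lengths, windows, other start sites, scaling, pseudocounts, the gene filter, the animal as a block and leaving out an animal. Scripts ran in Python 3.11.15 with pandas 2.3.3 and matplotlib 3.10.9.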

Additional observations from a re-analysis of the deposited data

How the results depend on the processing

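Peak lists limit these results, since a missing peak is a missing call and read depth was not used. Of 608 alternative values, 453 stayed on their side of the threshold or within the spread, 81 passed the threshold newly, 26 lost it, 10 reversed a called value and 38 moved, and 132 of the 608 changed sign. Against the 7 other tissues, 2 members were called in the analysis reported (limma) and 4 with q under 0.01, q under 0.0001, lists of equal length or peak bases per kb, 0 with bases near other start sites left out, and 6 when centred, centred with the replicate block, or centred at equal length. The 50 kb and 2 kb windows gave 3, 1 higher and 2 lower. All genes had 2763 higher and 13480 lower of 20154 at 50 kb. At 2 kb they had 533 and 10345 of 18218. NEUROD1 was called higher in all 4 of the settings with 4 calls, with CBLN1, CALB1 or PAX6 in some of them. The 4 calls were 2 higher and 2 lower with q under 0.01, beside 1690 and 10228 of 19397 genes. They were 2 and 2 with q under 0.0001, beside 1056 and 4067 of 18335. At equal length they were 3 and 1, beside 1692 and 8943 of 19442. Per kb they were 3 and 1, beside 3038 and 3763 of 19638. The 6 centred calls were 5 and 1, beside 4051 and 2273 of 19638 genes, or 3705 and 3056 of 19442 at equal length. Against the 5 non-brain tissues the 2 calls of the analysis reported were lower. The count was 4 with q under 0.01, q under 0.0001 or a 50 kb window, 2 of them higher. It was also 4 at equal length, 3 of them higher, and 3 with the 2 kb window, 1 of them higher. Per kb it was 5, 4 of them higher. Under the 3 centred settings it was 6, 5 of them higher, and without bases near other start sites it was 0. All-gene counts were 2123 higher and 12096 lower of 19638 genes, 3118 and 4929 per kb, and 4344 and 2575 when centred. Against cortex, the 2 lower calls became 1 lower with a 50 kb window, and 1 higher with the 2 kb window or when centred. With q under 0.01 or equal length they became 1 higher and 1 lower, and with q under 0.0001 2 higher and 1 lower. Centred at equal length they became 3 higher and 1 lower. The count was 0 without bases near other start sites, per kb, by number of peaks or with a pseudocount of 20. All-gene counts were 1356 higher and 7458 lower of 19638, and 2308 and 1932 of 19442 centred at equal length. Against hypothalamus, 0 became 1 with q under 0.01, equal length or no filter, 2 with the 2 kb window, 3 with q under 0.0001 and 4 centred at equal length. The centred settings were chosen after seeing the data.

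Members above all 14 other libraries went from 0 to 1 with q under 0.01, q under 0.0001, a 50 kb or a 2 kb window, to 2 at equal length or per kb, and from 0 to 3 on leaving out a pig. Members below all 14 went from 1 to 0 with a 50 kb window, without bases near other start sites, per kb or by number of peaks, and to 2 or 4 on leaving out P348 or P350. The all-gene shares of 4.99% above and 33.8% below all 14 hold for the analysis reported. Shares under the other settings are not given here, so those counts stand without a background. TSS peaks in both cerebellum libraries fell from 7 members to 3 with q under 0.0001, and from 68.3% to 36.3% of all genes.

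CBLN3 reversed. Against the 7 other tissues it was at 0.39 with q under 0.0001, 0.055 centred with or without the replicate block, and 0.49 centred at equal length. Against cortex it was at 0.86, 0.022 (centred, with or without the replicate block) and 0.44, and against the 5 non-brain tissues at 0.19 with q under 0.0001 and 0.38 centred at equal length. The cause was not tested. Without P348 and without P350, the difference from the 7 other tissues was 0.71 and -0.80 for EN2, 0.60 and -0.76 for PAX6, and 0.57 and -1.19 for BARHL1. With 1 pig left no spread remains, so these are values with no test and calls were not counted.

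Per Mb, the replicate block changed no member's call in the 4 comparisons, and centred it added ATOH1 against cortex. Per Mb with the block, 2000 genes were higher and 11690 lower against the 7 other tissues, beside 2000 and 11825. All-gene counts against the 7 tissues were 4051 higher and 2273 lower when centred, 3038 and 3763 per kb, 1056 and 4067 with q under 0.0001, and 533 and 10345 in the 2 kb window. Cerebellum-only regions were 7 of 67 when a peak in either pig sufficed and 5 of 41 with peaks closer than 500 bp merged.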
